A study of Mus musculus with 29 samples.

Results

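The 10 genes described here encode proteins of the contractile apparatus of smooth muscle: Acta2, Actg2, Tpm1, Tpm2, Tagln, Cnn1, Lmod1, Myl9, Myh11 and Des. They were taken by symbol from the 56953 features of a count table of cultured SVF (stromal vascular fraction), which is what remains of digested white fat once the adipocytes are removed. All 10 had a row with counts. Of these, 8 passed the filter on low counts that kept 8853 genes for testing, and Myh11 and Lmod1 did not.

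A contractile filament system is built from thin filaments of actin and tropomyosin, thick filaments of myosin, and the proteins that tie both to the cytoskeleton. In vascular smooth muscle the full set is made together under serum response factor and its partner myocardin. Pericytes, myofibroblasts and myoepithelial cells make part of it, and fibroblasts placed on stiff plastic are known to acquire Acta2 and Tagln in culture.

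The cultures came from C57BL6/J mice (age not given in the labels), with no allele or transgene named. Cells of inguinal fat (iWAT, subcutaneous) or perigonadal fat (pgWAT, visceral) were kept for 4 days in 96-well plates in PM1 medium, and every culture received 1 nM basic fibroblast growth factor, so no untreated control was compared. There were 29 Smart-seq3 libraries, 10 from male and 9 from female iWAT and, by label, 4 from male and 6 from female pgWAT. Each label names a plate well, with rows running to P, past those of a 96-well plate, and the labels do not say which plate is meant. The group sizes the study states differ from those of the labels, which were used here. Libraries of both depots were technical replicates from few independent experiments, and no label ties a library to an experiment or an animal, so the p-values below measure the spread between libraries, which is in part technical.

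Total counts per library ran from 315316 to 1102234, and 3 counts, the most that a count of 0 allows, made between 2.58 and 9.76 CPM (counts scaled to a common library total). Intervals and limits cover counting error only. No pair of libraries was alike within counting noise (lowest chi-square per degree of freedom 1.58 over 406 pairs). In iWAT the 9 female libraries had 16 to 97 counts of Xist and 0 of 4 Y-linked genes, and the 10 male libraries had Y-linked counts and at most 2 of Xist. In pgWAT the libraries labelled male replicates 2 and 4 had Xist and at most 1 Y-linked count, those labelled female replicates 2 and 3 had Y-linked counts and 0 of Xist, and female replicate 1 had both. Groups were kept as labelled, and results were repeated without these 5 libraries.

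The label of the gene set was checked first. Acta2, Tpm1, Tagln, Myl9 and Tpm2 were found in every library at 98.8 CPM or more, whereas the members most restricted to smooth muscle were near the counting limit. Myh11, the heavy chain of smooth muscle myosin, had 84 counts in all 29 libraries together, Lmod1 109 and Cnn1 150. Myocd, which encodes myocardin, had 0 counts in every library. Of the 12 other smooth muscle genes set beside the members, 5 passed the filter, and Pln, a calcium pump regulator of muscle, had 0 counts throughout. Fibroblast markers summed to between 6387 and 22688 CPM. The values below are therefore described as levels of contractile genes, and no cell type is named from them. In bulk RNA, fewer cells of a type and less RNA per cell cannot be told apart.

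Promoter sequences of RefSeq (build GRCm38.p6, 250 bases before to 50 after the annotated start) were at hand for 7 of the 10 members. Those of Acta2, Myl9 and Des are shown, because Myl9 and Des had the largest depot differences and Acta2 is the member by which contractile cells are usually recognised. Capitals mark CArG boxes, the element bound by serum response factor, allowing at most 1 mismatch among the 6 inner bases, and the MCAT element GGAATG, bound by TEAD factors, searched on both strands.
Acta2, chr19:34255324-34255623, minus strand: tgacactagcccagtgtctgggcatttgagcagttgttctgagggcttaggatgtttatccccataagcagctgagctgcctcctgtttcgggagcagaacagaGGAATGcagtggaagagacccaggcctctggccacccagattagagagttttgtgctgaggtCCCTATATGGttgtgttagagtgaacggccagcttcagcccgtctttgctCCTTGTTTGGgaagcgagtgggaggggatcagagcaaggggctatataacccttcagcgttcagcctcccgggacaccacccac
Myl9, chr2:156775214-156775513, plus strand: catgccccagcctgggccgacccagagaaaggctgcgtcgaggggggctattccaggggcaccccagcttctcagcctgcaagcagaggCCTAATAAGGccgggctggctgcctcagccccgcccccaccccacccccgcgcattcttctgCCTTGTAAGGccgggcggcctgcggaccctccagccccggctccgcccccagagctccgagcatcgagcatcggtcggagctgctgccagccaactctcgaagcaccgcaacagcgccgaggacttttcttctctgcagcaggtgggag
Des, chr1:75360042-75360341, plus strand: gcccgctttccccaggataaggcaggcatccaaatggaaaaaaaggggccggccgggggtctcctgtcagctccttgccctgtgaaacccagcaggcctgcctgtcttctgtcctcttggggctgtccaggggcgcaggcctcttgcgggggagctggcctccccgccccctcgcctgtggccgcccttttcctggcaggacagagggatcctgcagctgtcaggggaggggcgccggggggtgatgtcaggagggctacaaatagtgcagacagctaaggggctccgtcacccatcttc
Acta2 held CCCTATATGG at base -84 and CCTTGTTTGG at -34 from the start, each with 1 mismatch, and an MCAT element at -146. Myl9 held CCTAATAAGG without a mismatch at -161 and CCTTGTAAGG with 1 mismatch at -99. No such match was found in the windows of Des, Cnn1 and Tpm2, while Lmod1 and Tpm1 each had an MCAT element at -130 and -56. Over 32851 promoters of this length, 1.63% held a CArG box without a mismatch, 9.98% one with at most 1 mismatch and 14.7% an MCAT element. The motifs did not overlap, and such matches describe the letters only.

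Levels between members were compared as CPM per kilobase of transcript, averaged over the 29 libraries. On this scale Acta2 was the highest at 470 ± 245 (SD, n = 29), followed by Myl9 at 338 ± 337, Tagln at 316 ± 221, Tpm1 at 285 ± 74.4 and Tpm2 at 133 ± 37.0. The neighbours from Acta2 to Tpm1 lay within each other's spread. Des followed at 23.7 ± 28.7 and Actg2 at 16.6 ± 19.4, and Cnn1, Lmod1 and Myh11 were at 3.82 ± 5.20, 1.57 ± 1.77 and 0.81 ± 0.83. The 10 members together took 0.181% of counts in male and 0.310% in female iWAT libraries, and 0.426% and 0.434% in pgWAT libraries labelled male and female.

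**Figure D1:**
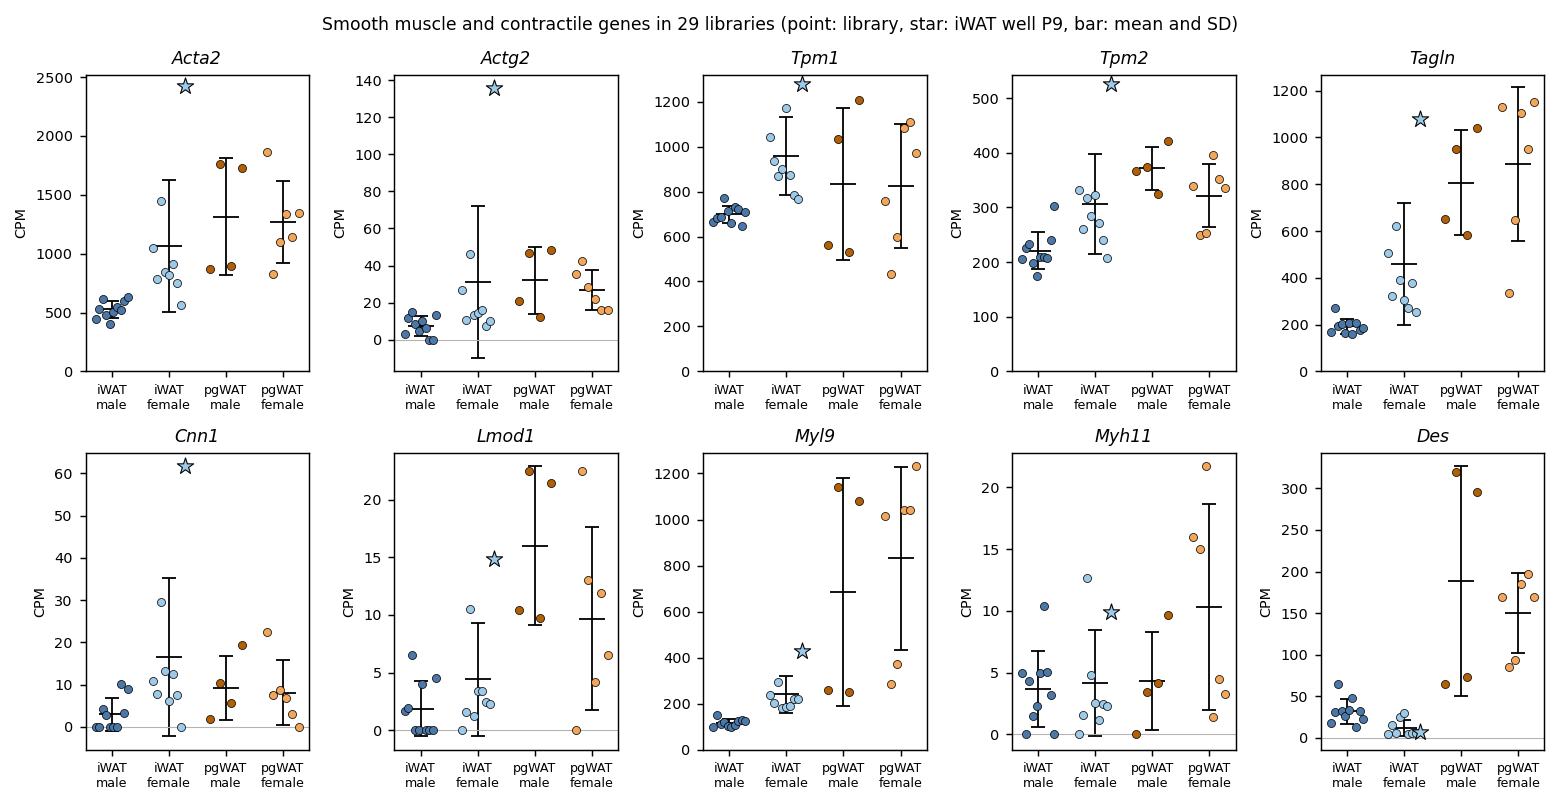
CPM of the 10 genes (y axis, linear, 1 panel each) in the 4 labelled groups, with 1 point per library, a star for iWAT well P9 and a bar for the mean and SD. Des sits at 64.9 CPM or less in all iWAT libraries and at 64.2 CPM or more in all pgWAT libraries, and the star is the highest of the 19 iWAT points in 8 of the 10 panels.

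The first comparison asked whether contractile genes differed between cultures of the 2 depots. In pgWAT, 6 members were higher than in iWAT and none was lower: Des and Myl9 by the most, then Tagln, Actg2, Acta2 and Tpm2 (edgeR quasi-likelihood test, Benjamini-Hochberg FDR below 0.05). Over all 8853 genes, 20.1% were called higher in pgWAT and 17.9% lower, 38.1% in all. Tpm1 and Cnn1 were not called. The median log2 fold change of the 8 members was 0.90, beside 0.01 over all genes tested. Actg2 enters the count and the median, but it passed the filter only through its pgWAT libraries. Its call is therefore no support for a depot difference.

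Actins come first. Acta2, the actin typical of vascular smooth muscle and myofibroblasts, had 405 CPM at the lowest, 526 at the median and 628 at the highest in iWAT male, and 564, 841 and 2421 in iWAT female. In pgWAT male the 4 libraries had 868, 1763, 896 and 1726 CPM, and in pgWAT female the lowest, median and highest were 827, 1240 and 1860. Every pgWAT library was above every iWAT male library, and the 2 depots overlapped through iWAT female. Acta2 was higher in pgWAT by 0.79 on the log2 scale (SE 0.16, edgeR FDR 0.000239). Its call was kept in each of 29 refits that left out 1 library. Without the 5 pgWAT libraries that went against or only partly met their sex labels the difference was 0.50 (FDR 0.0503), and without the 7 libraries with striated muscle transcripts described below 0.39 (FDR 0.137), both settings chosen after seeing the data, and Actg2 was then at 0.26 (FDR 0.768) and 0.41 (FDR 0.615).

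Actg2, the enteric smooth muscle actin, was much scarcer. It had between 0 and 15.1 CPM in iWAT male (median 7.48), between 7.43 and 136 in iWAT female (median 14.6), 20.8, 46.7, 12.5 and 48.2 in the pgWAT male libraries, and between 16.3 and 42.5 in pgWAT female (median 25.2). The pgWAT libraries fell inside the range of iWAT female, whose highest value was well P9. The depot difference was 1.00 (SE 0.39, edgeR FDR 0.0412). It was called in 13 of 29 refits without 1 library, with values from 0.84 to 1.34, and the refit without P9 gave the largest value and an FDR of 0.000635. The call was lost, with FDR up to 0.123, without any 1 of iWAT female replicates 2 and 4 to 8, iWAT male 1, 5 and 7 to 9, pgWAT female 1 to 3 and pgWAT male 2 and 4.

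Tropomyosins lie along actin and set its access to myosin. Tpm1 had a narrow range of 646 to 773 CPM in iWAT male (median 699) and 766 to 1278 in iWAT female (median 901). In pgWAT it spread further, with 561, 1032, 533 and 1209 in the libraries labelled male and 432 to 1108 in those labelled female (median 866). The groups overlapped, and the depot difference was 0.03 (95% interval -0.24 to 0.29, edgeR FDR 0.901). Tpm2 ran from 175 to 303 CPM in iWAT male and from 207 to 526 in iWAT female, and from 250 to 422 over pgWAT. It was higher in pgWAT by 0.42 (SE 0.11, FDR 0.00307), with 7 of 10 pgWAT libraries above the highest iWAT library once P9 was set aside and 0 of 10 with it.

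The actin-binding members moved unequally. Tagln (transgelin, an early marker of smooth muscle differentiation) had 160 to 270 CPM in iWAT male (median 190.0), 252 to 1081 in iWAT female (median 377), 653, 951, 582 and 1042 in pgWAT male and 335 to 1152 in pgWAT female (median 1027). Leaving P9 aside, 8 of 10 pgWAT libraries exceeded the highest iWAT library, and 3 did with P9 included. Tagln was higher in pgWAT by 1.52 (SE 0.18, edgeR FDR 3.86e-08) and was called in all 38 alternative settings that tested it, from 1.20 to 1.65.

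Cnn1 (calponin, an inhibitor of myosin ATPase) had 0 counts in 5 of 10 iWAT male libraries and at most 10.2 CPM there, 0 to 61.7 CPM in iWAT female, 1.74, 10.4, 5.55 and 19.3 in pgWAT male and 0 to 22.4 in pgWAT female. Its depot difference was 0.50 (SE 0.55, edgeR FDR 0.505), and without P9 it no longer passed the filter. Lmod1 (leiomodin, which starts new actin filaments) had 35 counts over the 19 iWAT and 74 over the 10 pgWAT libraries, or 2.81 (95% Poisson interval 1.96 to 3.91) and 12.8 (10.1 to 16.1) CPM over the pooled libraries. In the fit without a filter it was higher in pgWAT by 2.13 (SE 0.42, FDR 2.78e-05).

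Of the myosin members, Myl9, the regulatory light chain whose phosphorylation starts contraction, showed the plainest depot pattern. It had 98.8 to 149 CPM in iWAT male (median 116), 181 to 427 in iWAT female (median 218), 260, 1143, 251 and 1081 in the pgWAT male libraries, and 285 to 1233 in pgWAT female (median 1028). In pgWAT 6 of 10 libraries were above every iWAT library, and the other 4 lay inside the range of iWAT female. The difference was 2.18 (SE 0.21, edgeR FDR 3.21e-10) and was called in all 38 settings, from 1.37 to 2.32. Myh11 had 44 counts over the iWAT and 40 over the pgWAT libraries, which is 3.54 (95% Poisson interval 2.57 to 4.75) and 6.93 (4.95 to 9.44) CPM over the pooled libraries. In the unfiltered fit its difference was 0.85 (SE 0.46, FDR 0.279), and it was not called. The Poisson intervals of the pooled counts do not overlap, but they leave out the spread between libraries.

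Des encodes desmin, the intermediate filament of muscle cells, which pericytes also make. It had 12.7 to 64.9 CPM in iWAT male (median 31.5), 4.04 to 30.1 in iWAT female (median 6.33), 64.2, 320, 73.6 and 296 in pgWAT male and 85.0 to 197 in pgWAT female (median 169). A single pgWAT library, at 64.2 CPM, fell below the highest iWAT library, and the other 9 were above all 19. Des was higher in pgWAT by 3.06 (SE 0.26, edgeR FDR 2.89e-11), called in all 38 settings, from 2.47 to 3.58.

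Des is also made by striated muscle, and some libraries held such transcripts. The sum of Myog, Mylpf, Myl1 and Myh3, genes of skeletal myogenic differentiation, was 35.2 CPM or more in 7 libraries (iWAT female replicates 4 and 5, iWAT male 3 and 7, pgWAT male 2 and 4, pgWAT female 1) and 7.41 CPM or less in the other 22. The 12 striated muscle and satellite cell markers summed to between 1.65 and 394 CPM in iWAT and between 0 and 218 CPM in pgWAT, with Myod1, Myf5 and Pax7 at 0 in every pgWAT library. In iWAT male, iWAT female and pgWAT male, the 2 libraries with the highest Des (up to 64.9, 30.1 and 320 CPM) were among these 7. In the pgWAT female replicates 4 to 6, Des was 185, 197 and 169 CPM with 1.38, 7.41 and 3.25 CPM of the 4 genes. Without the 7 libraries the depot difference of Des was 2.86 (FDR 4.82e-11), that of Myl9 1.37 (FDR 1.38e-05) and that of Tagln 1.20 (FDR 0.000212), while Acta2, Tpm2 and Actg2 were not called.

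**Figure D2:**
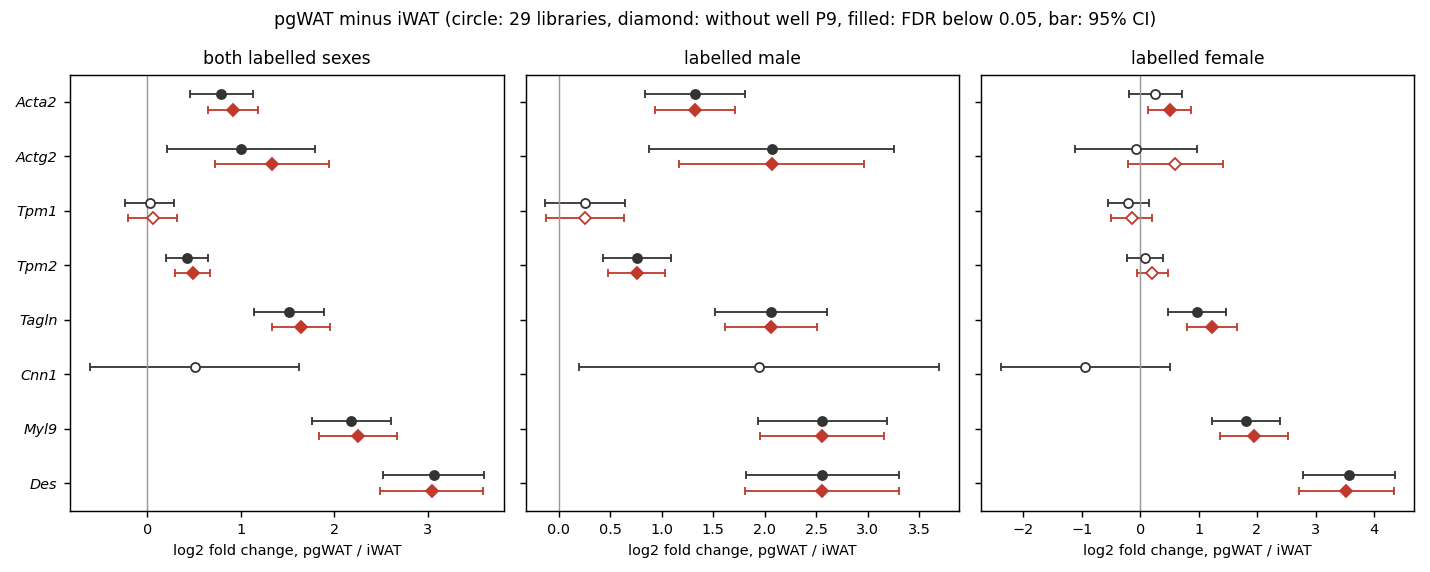
Log2 fold change of pgWAT over iWAT (x axis) with its 95% confidence interval for the 8 genes tested, with both labelled sexes weighted equally, in male and in female (panels), for 29 libraries (circles) and without well P9 (diamonds); filled symbols have an FDR below 0.05. Des, Myl9 and Tagln are filled in all panels, and Acta2 in female is filled only without P9.

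Whether the depot difference appeared in both labelled sexes was read from each sex alone, each against its own iWAT group. In males 6 of the 8 members were higher in pgWAT (of all genes 11.8% were called higher, 8.53% lower and 20.3% in all): Myl9 by 2.56 (SE 0.31), Des by 2.56 (SE 0.37), Actg2 by 2.07 (SE 0.58), Tagln by 2.06 (SE 0.27), Acta2 by 1.32 (SE 0.24) and Tpm2 by 0.76 (SE 0.16), with edgeR FDR between 1.47e-07 and 0.0105. Actg2 lost its call without pgWAT male replicate 4 (1.75, FDR 0.0793). As it passed the filter only through pgWAT libraries, its call in males is no support for a depot difference either. Against the libraries labelled pgWAT male replicates 1 and 3 alone, Tagln at 1.65 (FDR 0.00012) and Myl9 at 1.11 (FDR 0.000279) were called, and Des at 1.08 (FDR 0.0956) and Acta2 at 0.72 (FDR 0.107) were not. In the fit without the 7 libraries with striated muscle transcripts, which leaves the same 2 pgWAT male libraries, Des was called at 1.34 (FDR 0.00698). In females 3 were higher (of all genes 14.2% were called higher, 12.6% lower and 26.8% in all): Des by 3.57 (SE 0.38), Myl9 by 1.81 (SE 0.28) and Tagln by 0.97 (SE 0.25), with FDR between 9.66e-09 and 0.00332. In females Acta2 was at 0.26 (95% interval -0.19 to 0.71), Tpm2 at 0.08 (-0.23 to 0.39) and Actg2 at -0.07 (-1.11 to 0.97), none called. Without P9, Acta2 in females was 0.51 (SE 0.18, FDR 0.0375).

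The test of whether the depot difference itself differed between the labelled sexes called none of the 8 members (edgeR, 0.181% of all genes called, 0.102% higher and 0.0791% lower). At an unadjusted p below 0.05, 5 of them passed, and DESeq2 and limma-voom also called 0. The estimates of these 5 were 1.06 (SE 0.33, FDR 0.284) for Acta2, 1.09 (SE 0.37, FDR 0.370) for Tagln, 2.14 (SE 0.78, FDR 0.402) for Actg2, 0.68 (SE 0.22, FDR 0.327) for Tpm2 and 2.88 (SE 1.12, FDR 0.428) for Cnn1. All were toward a larger depot difference in the libraries labelled male, and Cnn1 lay near the counting limit. Des was at -1.01 (SE 0.56, FDR 0.629). Des was called in 3 of 37 other settings, at -2.78 (FDR 0.00226) without the 5 pgWAT libraries at odds with their labels and at -3.04 (FDR 0.0015) without those with striated muscle transcripts. Myl9 was at 0.75 (SE 0.43, FDR 0.656) over all libraries. Without the 5 pgWAT libraries at odds with their labels it turned to -1.10 (FDR 0.0249) and was called.

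Wells of 1 column of the labelled plate give a check within a stretch of it. In column 8, with 3 libraries of each female group, 6 of the 7 members tested were higher in pgWAT (of 8118 genes 9.49% were called higher and 6.48% lower). Myl9 was at 2.39, Tagln at 1.83 and Acta2 at 0.78 (edgeR FDR 1.05e-10, 2.47e-08 and 0.000756). Des is in this count at 5.05 (edgeR FDR 2.85e-11). With 4.54 to 6.19 CPM in the 3 iWAT libraries of the column, it passed the filter there through pgWAT alone. Its call in column 8 is therefore no support for a depot difference. The pgWAT libraries compared there (K8, L8 and O8) had Myl9 at 1041.5 to 1233 CPM. The pgWAT female libraries with the lowest Myl9 (B10 and G10, at 285 and 371 CPM) and well P9 lay in other columns. In column 9, with 3 iWAT male libraries and pgWAT male replicates 2 and 4, the 7 members that passed both the filter there and the filter over all libraries were higher (of 7752 genes 13.5% were called higher and 11.6% lower), with Myl9 at 3.40 (FDR 4.67e-09) and Tpm1 at 0.71 (FDR 0.00284). Lmod1 passed the filter in this column through its pgWAT libraries and was left out of the count. Actg2 is in the count, but it too passed there through pgWAT, with 15.1 CPM or less in the iWAT male libraries. Its call in column 9 is therefore no support for a depot difference. Both pgWAT libraries of column 9 were among those with striated muscle transcripts and with Xist. With well column as a factor over all libraries, 6 members were called higher, as without it, and 15.8% of all genes were called higher in place of 20.1%.

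The second comparison asked whether male and female iWAT cultures differed. In iWAT, where all labels matched the sex-linked transcripts, 6 of the 8 members were lower in male than in female cultures (of all genes 2.13% were called lower, 1.08% higher and 3.22% in all), and the median log2 fold change of the 8 was -1.02 beside 0.01 over all genes. Cnn1 enters both values, but it failed the filter when iWAT female replicate 3 or 9, its highest iWAT libraries, was left out. Its call is therefore no support for a sex difference. Myl9 was the one member without overlap: its lowest female library, at 181 CPM, was above the highest male library, at 149 CPM. Over all genes tested, 0.328% had every iWAT female library above every iWAT male library. Myl9 fell by 1.03 on the log2 scale in males (SE 0.26, edgeR FDR 0.0223).

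Acta2 fell by 1.01 (SE 0.20, FDR 0.00251) and Tagln by 1.23 (SE 0.23, FDR 0.00127), with 8 and 7 of the 9 female libraries above the highest male library. Both calls were kept in each of the 37 alternative settings that tested them. Tpm2 fell by 0.47 (SE 0.13, FDR 0.0399), Actg2 by 1.83 (SE 0.51, FDR 0.0361) and Cnn1 by 2.53 (SE 0.70, FDR 0.0378), but these were called in 15 of 29, 22 of 29 and 18 of 26 refits without 1 library. Tpm2 lost its call without any 1 of iWAT female replicates 1, 3 to 6 and 9 and iWAT male 1 to 8 (lowest size -0.34), Actg2 without iWAT female 3 or 9 or iWAT male 1, 5, 7, 8 or 9 (-1.16), and Cnn1 without iWAT female 4 or 6 or iWAT male 1, 2 or 4 to 7 (-2.29). Tpm1 at -0.45 (SE 0.15, FDR 0.0923) missed the threshold although 8 of 9 female libraries were above the highest male one, and it was called within well column 7 (-0.54, FDR 0.011).

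Des was the member with the other direction. It was 1.34 higher in male iWAT (SE 0.40, edgeR FDR 0.056), with 6 of 10 male libraries above the highest female library, and was not called. It was called in 10 of 37 other settings, whose FDR ran from 0.000352 without the libraries with striated muscle transcripts (1.93) to 0.685 within well column 7 alone (0.35). Leaving out iWAT female 4 or 5, iWAT male 8 or any 1 of the 4 libraries labelled pgWAT male brought it past the threshold.

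**Figure D3:**
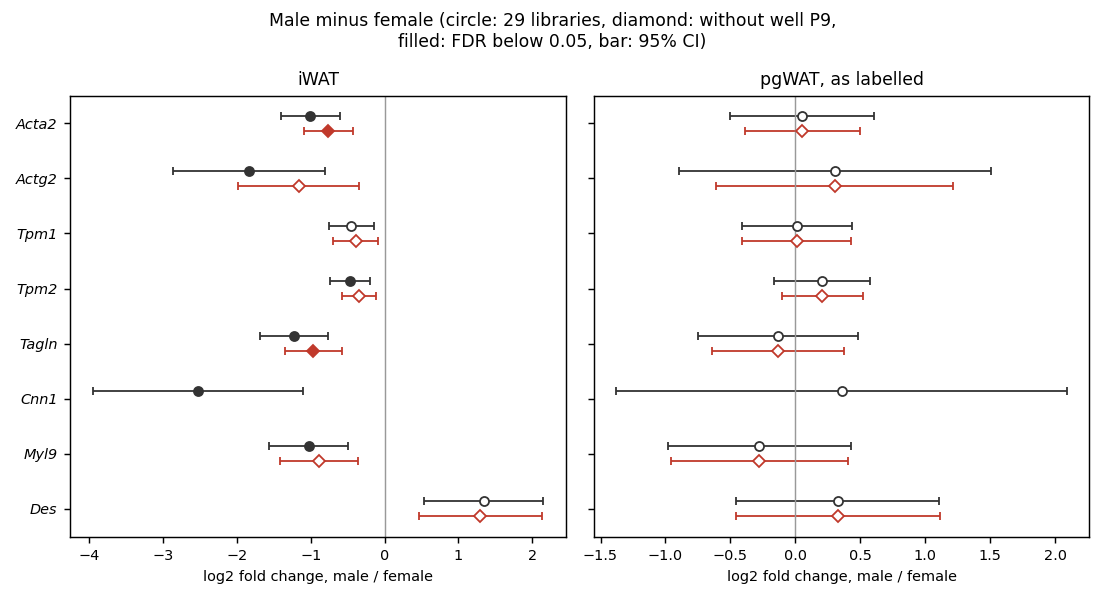
Log2 fold change of male over female (x axis) with its 95% confidence interval for the 8 genes tested in iWAT and in pgWAT as labelled (panels), for 29 libraries (circles) and without well P9 (diamonds); filled symbols have an FDR below 0.05. In iWAT 6 circles are filled and the diamonds of Acta2 and Tagln alone stay filled, and in pgWAT no symbol is filled.

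Well P9, iWAT female replicate 9, stood apart. It had the highest value of all 29 libraries for 5 members (Acta2 2421, Actg2 136, Cnn1 61.7, Tpm1 1278 and Tpm2 526 CPM) and of the 19 iWAT libraries for 8, all but Myh11 and Des. Against the median of the other 8 iWAT female libraries it was 9.80 times as high for Actg2, 6.67 for Cnn1, 6.25 for Lmod1, 3.10 for Tagln, 2.92 for Acta2, 2.02 for Myl9, 1.89 for Tpm2 and 1.44 for Tpm1, and 1.18 for Des. It held 34.2% of the Actg2 counts and 28.7% of the Cnn1 counts of its group, from 9 libraries.

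Epithelial markers were high in the same well. The 8 simple epithelium markers summed to 2258 CPM in P9, between 65.6 and 409 CPM in the other 8 iWAT female libraries and between 1.96 and 56.3 CPM in iWAT male. The 7 basal and myoepithelial markers summed to 1071 CPM in P9, between 7.92 and 137 in the other 8 and between 0 and 4.15 in iWAT male. Krt8, a keratin of simple epithelia, had 300 counts in P9, 14 to 82 in the others and 1 count over the 10 male libraries; Krt14, a keratin of basal and myoepithelial cells, had 118, 4 to 22 and 0. Within iWAT female, the library with the next highest Acta2, Actg2 and Cnn1 (replicate 3, at 1445, 46.4 and 29.5 CPM) also had the next highest Krt8 and Krt14 (173 and 40.1 CPM). The part of these markers in the sex difference was not tested.

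Without P9, 2 of the 7 members still tested were called lower in male iWAT (3.11% of all genes were called, in either direction). Acta2 fell by 0.76 (SE 0.16, edgeR FDR 0.00589) and Tagln by 0.97 (SE 0.19, FDR 0.00275). Myl9 at -0.89 (SE 0.26, FDR 0.0561), Tpm2 at -0.34 (FDR 0.0999) and Actg2 at -1.16 (FDR 0.119) kept their sign and were not called, and Cnn1 did not pass the filter. For Myl9 the remaining 8 female libraries were still all above the 10 male ones, as were those of 0.384% of all genes. Depot calls without P9 were the same 6 members (37.3% of all genes were called), with Acta2 at 0.91 and Tagln at 1.65. Among them Actg2 again passed the filter only through its pgWAT libraries.

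In pgWAT no member differed between libraries labelled male and female (edgeR, 0 of 8, none at an unadjusted p below 0.05, and 0 by DESeq2 and limma-voom), and 0.0113% of all genes were called. The estimates ran from -0.28 for Myl9 (95% interval -0.98 to 0.43) to 0.36 for Cnn1 (-1.38 to 2.09). Des was at 0.33 (-0.45 to 1.11) and Acta2 at 0.05 (-0.50 to 0.61). These groups mix libraries of both kinds of sex-linked transcripts, so each library is given by itself.

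Myl9 took 2 separate levels among the 10 pgWAT libraries, a pattern noticed after the values were seen and not tested. It was between 251 and 371 CPM in male replicates 1 and 3 and female replicates 2 and 3 (wells B8, I7, B10 and G10), and between 1015 and 1233 CPM in male replicates 2 and 4 and female replicates 1, 4, 5 and 6 (C9, J9, A10, K8, L8 and O8). The first 4 libraries had 0 counts of Xist and 23 to 34 counts of Y-linked genes. The latter 6 had 7 to 60 counts of Xist and at most 1 Y-linked count, except female replicate 1 with 10.

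Of the other 9 members, 4 had the same libraries apart. The share of all genes that part these libraries was not computed, so this count is not a result about the members. Des was at 64.2 to 93.3 CPM in the first 4 and 169 to 320 in the latter 6, Tpm1 at 432 to 599 and 759 to 1209, Tagln at 335 to 653 and 950 to 1152, and Acta2 at 827 to 1098 and 1145 to 1860 CPM. The other 5 members, Tpm2, Actg2, Cnn1, Lmod1 and Myh11, overlapped between these libraries, with Tpm2 at 250 to 366 and 335 to 422 CPM and Actg2 at 12.5 to 42.5 and 16.3 to 48.2 CPM. Cd68, a macrophage marker, was at 250 to 591 CPM in the first 4 and 77.1 to 195 in the latter 6. The part of macrophages in these values was not tested. By well column, Myl9 was at 251 CPM in the 1 pgWAT library of column 7, at 260 to 1233 in the 4 of column 8 and at 1081 and 1143 in the 2 of column 9, and position was not tested.

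When the 5 pgWAT libraries at odds with their labels were left out, which was chosen after seeing the data, libraries labelled male replicates 1 and 3 were compared with female replicates 4 to 6. Myl9 was then lower in male by 2.14 (FDR 6.79e-07) and Tpm1 by 0.98 (FDR 0.000603), and Des was at -1.45 (FDR 0.0583, not called). Over the 37 other settings the FDR of Myl9 in this contrast ran from 6.79e-07 to 1, and 2 settings called it, the other being the one without the libraries with striated muscle transcripts (-1.65, FDR 0.0178).

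**Figure D4:**
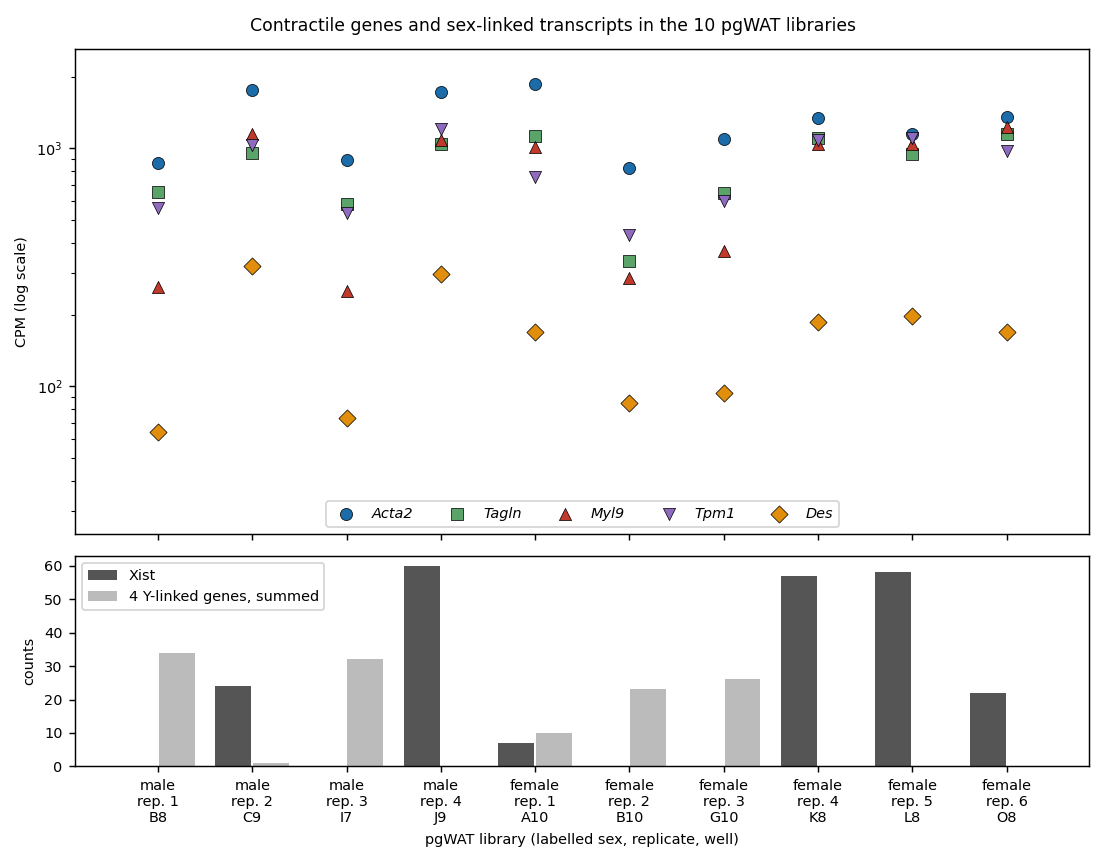
CPM of Acta2, Tagln, Myl9, Tpm1 and Des (upper panel, log axis) and counts of Xist and of 4 summed Y-linked genes (lower panel, linear axis from 0) in each of the 10 pgWAT libraries, by labelled sex, replicate and well. Myl9 lies between 251 and 371 CPM in the 4 libraries without Xist counts and between 1015 and 1233 CPM in the other 6.

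Other contractile genes were read from lists set beside the members. Of the 12 other smooth muscle genes, 3 were higher and 1 lower in pgWAT among the 5 tested (20.1% and 17.9% of all genes). Mylk, the kinase that phosphorylates myosin light chains such as Myl9, had 3.40 to 27.4 CPM in the 19 iWAT and 35.8 to 160 CPM in the 10 pgWAT libraries, without overlap, which held for 1.47% of all genes (1.54% without P9) and for none of the 10 members. It was higher by 2.94 (SE 0.25, edgeR FDR 1.89e-11). Unlike Myl9, it did not part the pgWAT libraries, with 56.9 to 160 CPM in the 4 with low Myl9 and 35.8 to 125 in the others. Csrp1, an actin-linked LIM protein, was higher by 0.68 (SE 0.15, FDR 0.000388), and Itga8, an integrin subunit of smooth muscle, was at -1.48 (SE 0.48, FDR 0.0145) with 18 counts over all pgWAT libraries. Smtn, the smooth muscle protein smoothelin, was lower in male iWAT, at -0.60 (FDR 0.015).

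Non-muscle contractile and actin-binding genes are present in most cells. Of 26 tested, 10 were higher and 3 lower in pgWAT (20.1% and 17.9% of all genes), with a median of 0.20. Vcl (vinculin, of focal adhesions) was at 0.70 (SE 0.14, edgeR FDR 0.000184), Csrp2 at -1.19 (SE 0.13, FDR 3.59e-09) and Lmna (lamin A/C) at -0.97 (SE 0.13, FDR 5.37e-07). In the iWAT sex contrast 4 were lower in male, among them the calponin Cnn2 at -0.78 (SE 0.12, FDR 9.75e-05), Pdlim7 at -0.65 (FDR 0.00788) and Actn1 (alpha-actinin) at -0.57 (FDR 0.0101).

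Of the 12 genes for serum response factor and its partners, 10 were tested, and 3 were higher and 1 lower in pgWAT, close to the 38.1% of all genes called in either direction. Srf itself was at -0.17 (SE 0.29, edgeR FDR 0.679), and its coactivators Mrtfa and Mrtfb at 0.32 (SE 0.18, FDR 0.149) and 0.22 (SE 0.16, FDR 0.306). Klf4, a repressor of smooth muscle genes, was higher by 1.46 (SE 0.20, FDR 5.24e-07) and Tead1, a factor that binds the MCAT element, by 0.88 (SE 0.13, FDR 2.07e-06). Wwtr1 (TAZ, a partner of TEAD factors) was at -0.73 (SE 0.17, FDR 0.00102). Fhl2, a LIM protein that binds serum response factor, was higher in pgWAT by 0.69 (SE 0.13, FDR 4.13e-05) and at -0.72 in the iWAT sex contrast (SE 0.15, FDR 0.00559).

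Markers of other cell types were set beside the members by depot. Over all genes, 20.1% were called higher in pgWAT and 17.9% lower. Higher were 3 of 3 mesothelial, 5 of 6 fibroblast, 2 of 4 macrophage and 1 of 3 endothelial markers tested, and none of these was lower. The 3 mesothelial markers passed the filter through their pgWAT libraries alone, as all 7 together reached at most 12.7 CPM in iWAT. Their count can therefore not be set beside the share over all genes. Of 5 simple epithelium markers tested, 1 was higher and 1 lower. Of the pericyte markers 1 of 3 tested was higher in pgWAT, and 0 of 4 striated muscle and 0 of 2 basal and myoepithelial markers were called. The 8 pericyte markers summed to 41.7 to 137 CPM in iWAT and 115 to 484 in pgWAT, and the marker called was Ndufa4l2, higher in pgWAT by 3.47 (SE 0.30, edgeR FDR 2.18e-11). Rgs5, a defining pericyte marker, had 2.16 to 21.5 CPM in iWAT and 0 to 12.1 CPM in pgWAT. The 7 mesothelial markers summed to 0 to 12.7 CPM in iWAT and 57.3 to 183 CPM in pgWAT, with Upk3b at 1 count over the iWAT and 231 counts over the pgWAT libraries. Macrophage markers summed to 91.6 to 306 CPM in iWAT and 145 to 905 in pgWAT, endothelial markers to 32.0 to 121 and 42.9 to 105, and fibroblast markers to 6387 to 12199 and 11687 to 22688. The part of these cell types in the depot difference of the members was not tested.

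**Figure D5:**
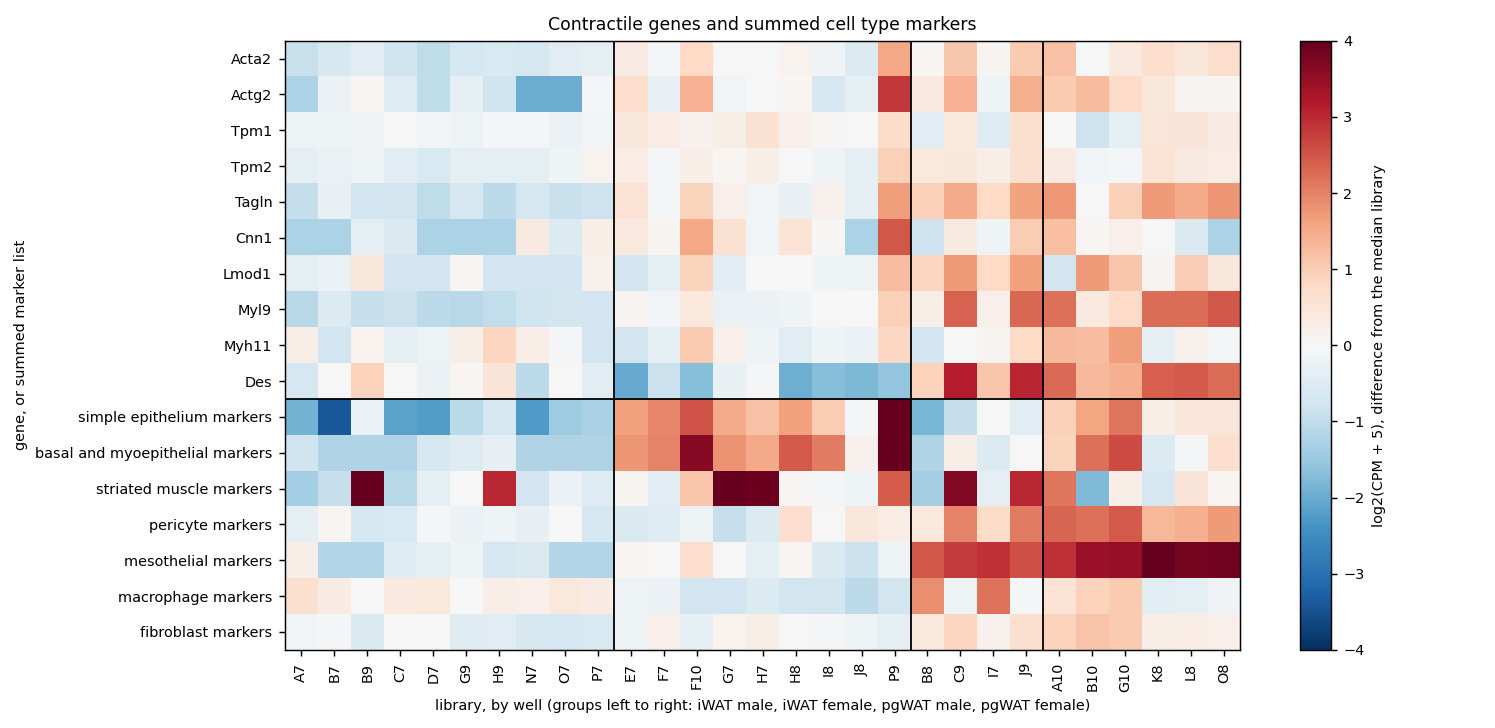
Difference of log2(CPM + 5) from the median library (colour, capped at 4 in either direction) for the 10 genes and for 7 summed marker lists (rows) in the 29 libraries (columns, by well, with lines between the labelled groups). Well P9 has the darkest cells of both epithelial rows, and the wells with low Myl9 in pgWAT (B8, I7, B10 and G10) are pale in the Myl9 row.

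How the members varied together was described by Pearson's r of log2 CPM (prior count 2) after subtraction of the 4 group means. These values share the 29 libraries and their scaling and are given without a test. The groups are those of the labels, so the 2 levels of Myl9 within pgWAT and the distance of well P9 remain in them. Among the 7 tested members other than Des, the 21 pairs had a median r of 0.59, from 0.21 to 0.85. The closest pairs were Tpm1 with Myl9 at 0.85 and Acta2 with Tagln at 0.84. Des stood further off, with r between 0.02 and 0.60 to the others.

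Among all genes tested, the ones most like each member were listed by the same r. For Acta2 they were Tagln (0.84), Thbs1 (0.83) and Actg1 (0.82), for Tagln Acta2, Tm4sf1 (0.82) and Actg1 (0.81), and for Tpm2 Hspa8 (0.85), Tm4sf1 (0.83) and Acta2 (0.81). For Myl9 they were Thbs2 (0.91), Ctla2a (0.91) and Rxfp2 (0.90), and for Tpm1 Cdh11 (0.86), 1600027J07Rik (0.85) and Myl9. Cnn1 was closest to Acta2 (0.74), Krt8 (0.69) and Cct5 (0.68), and Actg2 to Rpl4 (0.76), Cald1 (0.73) and Nars (0.72). Des was closest to Mylpf (0.78), Grb10 (0.77) and Igfbp5 (0.76), the first of which encodes a light chain of fast skeletal muscle.

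Little sequence was shared with related genes. The share of a transcript's 31-base words also present in another gene of the GRCm38 annotation was 1.50% for Acta2, 1.46% for Actg2, 1.06% for Myh11, 0.455% for Myl9, 0.420% for Tpm2 and 0.200% for Des, and 0 for the other members.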

How the data were processed

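Sequencing and quantification were done by the authors. The submitters' processing notes name bcl2fastq, FastQC 0.11.9, STAR 2.7.10a, SAMtools, MultiQC 1.12, Salmon 1.9.0 and genome build GRCm39. The deposited table holds the authors' expected counts per gene from Salmon, with UMI and non-UMI reads together and libraries with few genes already removed (96.5% of values were whole), and these were rounded before testing. Symbols (found for 52029 of 56953 features), transcript lengths and shared sequence came from the GENCODE vM21 annotation (GRCm38), and no coordinates were moved between builds.

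CPM was the count divided by the library total times the TMM factor (0.949 to 1.06). Genes were filtered with filterByExpr on the 4 labelled groups and fitted with the quasi-likelihood test of edgeR 4.0.16 (limma 3.58.1, R 4.3.3), 1 mean per group over 29 libraries, with Benjamini-Hochberg FDR below 0.05 over all genes tested. The depot contrast averaged both sexes. DESeq2 1.42.0, limma-voom, other scalings, no filter, well column, subsets and single-library refits were alternatives. The steps were tested on simulated data. From each list of other contractile genes and regulators, the text names at most the 3 genes with the largest called changes by depot and 3 by sex in iWAT, and Myocd, Srf, Mrtfa and Mrtfb. Pln and the single marker genes of other cell types were named after their values were seen. The members and lists were chosen with earlier results of these data known.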

Additional observations from a re-analysis of the deposited data

Results flagged for a closer look

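In 9 of 40 tests of 1 group and gene, a library stood further from its nearest neighbour than Dixon's 95% limit allows, which chance gives for about 1 group in 20. Of these, 6 were iWAT female replicate 9 (well P9), with Acta2 at 2421 CPM, Tagln at 1081, Cnn1 at 61.7, Myl9 at 427, Tpm2 at 526 and Actg2 at 136. The other 3 were in iWAT male: replicate 2 had 270 CPM of Tagln (next highest 206), replicate 10 had 303 CPM of Tpm2 (next 241), and replicate 7 had 10.4 CPM of Myh11 (next 5.08), which is 1 of the libraries with striated muscle transcripts.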

How the results depend on the processing

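No paired analysis was possible because the labels give wells and no replicate numbers, and the numbers used here pair nothing. Counts of members called stayed within 1.5 times in the settings not named here. Without the 7 libraries with striated muscle transcripts, chosen after seeing the data, the count was 3 by depot, 3 in males, 1 for sex in pgWAT and 1 for the interaction. Without the 5 pgWAT libraries at odds with their sex labels, also chosen then, it was 2 in males, 2 for sex in pgWAT and 2 for the interaction, with Tpm1 at -0.98 for sex in pgWAT and Myl9 at -1.10 in the interaction, both turned in sign. Within well column 8 it was 6 in females, with Des counted and Tpm1 turned to 0.39. For sex in iWAT limma-voom called 2. The interaction had 3 calls without a filter and 1 with well column as a factor. Over single-library refits the counts ran from 5 to 7 by depot and in males, 3 to 4 in females, 2 to 7 for sex in iWAT (2 without P9, and 3 without iWAT female 3 or iWAT male 1, 5 or 7), and stayed at 0 for the others. The cause was not tested. At 315316 to 1102234 counts per library, Myh11, Lmod1 and Cnn1 lay near the counting limit.

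Over all genes, calls by depot numbered 3371, against 2251 and 2236 without the libraries of those 2 settings and 920 above a fold of 2. In males they were 1801, against 872 and 686, in females 2374 against 1296 within column 8. For sex in iWAT they were 285, against 509 without a filter, 496 with well column and 237 by limma-voom. For sex in pgWAT they were 1, against 536 without the 5 pgWAT libraries and 300 without the libraries with striated muscle transcripts. For the interaction they were 16, against 244 and 52 in those 2 settings, 73 without a filter and 18 with well column, over a range of 2 to 244.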
